A study of Mus musculus with 20 samples.

Results

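The genes described here were raised by testosterone in wild type kidneys and stood at nearly the same level in vehicle-treated ARLmon and wild type kidneys. They are 103 of the 15549 genes that passed the filter on low counts, out of 24762 in the joined count table. A gene was a member when its mean in the wild type testosterone libraries was at least 5 CPM (counts scaled to the size of the library) and at least 2 times its wild type vehicle mean, and when the log2 ratio of the ARLmon vehicle mean to the wild type vehicle mean lay within 0.5 of 0. Members were thus selected on measured group means. These thresholds left 129 genes, of which 26 were set aside by name: solute carriers, hydroxysteroid dehydrogenases, predicted and unnamed genes, and Odc1, Nudt19, Gusb, Srd5a2 and Rnf180. Symbols of ABC transporters, cytochromes P450 and some other enzyme families were barred too. The members were chosen by the values of the wild type testosterone, wild type vehicle and ARLmon vehicle libraries, which are given as a description. The ARLmon testosterone libraries took no part in the choice.

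Kidney RNA had been sequenced from male mice that were orchidectomised, which removes the testicular source of androgen, and then given testosterone or vehicle for 4 days. The 4 groups of 5 libraries were ARLmon/Y mice with testosterone, ARLmon/Y mice with vehicle, wild type C57BL/6J mice with testosterone and wild type C57BL/6J mice with vehicle. All 20 libraries, controls included, therefore came from castrated animals, and ages were not given. The ARLmon mouse carries a mutation of the androgen receptor that is known to impair dimerisation through the ligand-binding domain, in every tissue that expresses the receptor. Whether each library is 1 animal is not stated, and a p therefore reflects variation among libraries, which may be technical.

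The androgen receptor is a nuclear receptor that binds testosterone or dihydrotestosterone, enters the nucleus and regulates genes through DNA elements built from paired hexamers. The mouse kidney is a classical androgen target: the proximal tubule of males expresses many enzymes, transporters and secreted proteins at other levels than that of females, and castration followed by testosterone replacement has long been used to measure this response. A level that is the same in the vehicle groups of both genotypes is a common starting point from which the hormone response of each receptor can be read.

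Total counts were 10236738 to 18609328 in the ARLmon testosterone libraries, 11569255 to 16881304 in the ARLmon vehicle libraries, 8342000 to 15422018 in the wild type testosterone libraries and 8618311 to 38101526 in the wild type vehicle libraries. Markers of the convoluted proximal tubule summed to between 10149 and 18122 CPM over the 20 libraries, so the tissue carried its kidney label. Adrenal gland markers summed to at most 1.96 CPM in 19 libraries and to 11.4 CPM in the ARLmon vehicle library GC078620.

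RefSeq promoters (GRCm38.p6, 250 bases before to 50 after the start) were available for 83 members, of which 56 had a single entry. These were searched on both strands for the androgen response element, which is AGAACA and TGTTCT separated by any 3 bases, allowing 3 mismatches in its 12 fixed letters. Such a match stood in 3 of the 56 member promoters (5.36%), against 14.8% of the 22862 genes with a single promoter entry. The 22862 genes were not matched to the members for expression level or base composition, and the shares were not tested. The hexamer AGAACA or its reverse complement TGTTCT, both of which lie within every exact element, stood in 8 of the 56 (14.3%), against 19.4%. None of the 56 held the element with at most 2 mismatches, against 1.86% of the 22862. Members with several promoter entries or none were not searched. The 3 promoters with a match are shown because, of the 56 windows, they are nearest to the receptor's element. The matched 15 bases are in capitals, and each promoter is written along the strand of its gene. The 3 promoters belong to Tbx10 (chr19:3992502-3992801, plus strand), Chac2 (chr11:30986316-30986615, minus strand) and Them7 (chr2:105224092-105224391, plus strand).

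Tbx10: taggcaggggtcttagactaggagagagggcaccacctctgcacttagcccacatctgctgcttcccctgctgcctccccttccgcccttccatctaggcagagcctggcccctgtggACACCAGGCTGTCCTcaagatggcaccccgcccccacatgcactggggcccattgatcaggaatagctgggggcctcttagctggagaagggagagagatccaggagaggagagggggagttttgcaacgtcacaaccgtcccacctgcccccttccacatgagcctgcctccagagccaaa
Chac2: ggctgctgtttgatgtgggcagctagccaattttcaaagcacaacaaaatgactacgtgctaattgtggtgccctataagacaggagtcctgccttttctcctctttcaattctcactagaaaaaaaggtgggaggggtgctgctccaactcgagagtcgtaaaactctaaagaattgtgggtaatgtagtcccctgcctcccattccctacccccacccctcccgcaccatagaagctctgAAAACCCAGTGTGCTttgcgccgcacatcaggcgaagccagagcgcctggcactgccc
Them7: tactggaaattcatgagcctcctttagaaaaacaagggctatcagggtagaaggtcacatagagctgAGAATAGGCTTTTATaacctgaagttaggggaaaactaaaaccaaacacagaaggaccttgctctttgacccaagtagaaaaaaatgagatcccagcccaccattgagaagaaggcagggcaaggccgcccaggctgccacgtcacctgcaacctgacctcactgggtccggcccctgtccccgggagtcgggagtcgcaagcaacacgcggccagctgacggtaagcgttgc

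The matches began 132 bases before the Tbx10 start, 8 bases before the Chac2 start and 183 bases before the Them7 start. A match is a description of letters and not a binding site, and windows farther from the start were not searched. Tbx10, a T-box transcription factor, had the largest fold of all members in wild type, while Chac2, which degrades glutathione, was near the 2-fold threshold. Them7, a member of the thioesterase superfamily, lay between them.

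In wild type kidneys the members were between 2.00 and 17.99 times higher with testosterone than with vehicle, with a median of 2.35 times. All 103 passed the adjusted threshold in that comparison, where 9.36% of all tested genes were called higher, but this contrast chose them and nothing is read from the count. The response was mostly moderate: 66 members were under 2.5-fold, 23 were at 3-fold or more and 8 at 4-fold or more. Mean levels in wild type testosterone kidneys ran from 5.54 to 2043 CPM with a median of 82.4 CPM. In 94 members all 5 testosterone libraries were above all 5 vehicle libraries (8.34% of all tested genes). The other 9, Apobec2, Hs6st2, Inmt, Ly6e, Mfsd2a, Proz, Ptpn22, Selenbp2 and mt-Atp6, had overlapping libraries despite means that were at least 2-fold apart. The plot of members by library shows the block of wild type testosterone libraries against the other 15.

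**Figure D1:**
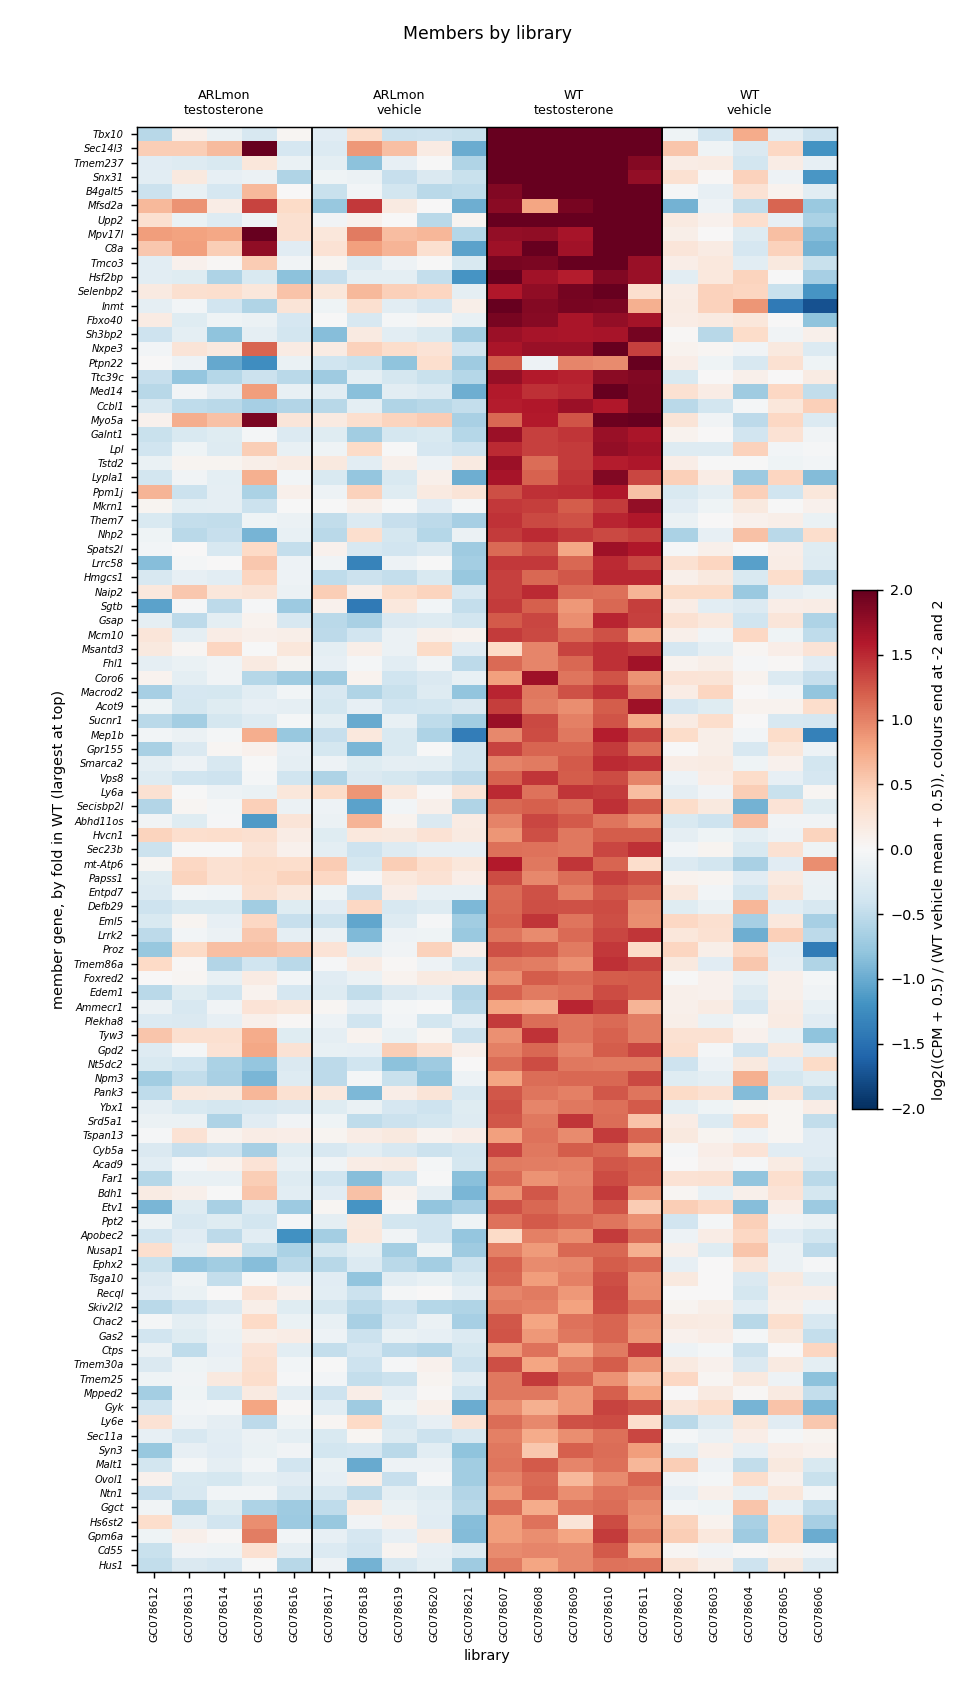
Each row is 1 of 101 members, ordered by its fold in wild type, and each column a library. Colour is log2((CPM + 0.5) / (wild type vehicle mean + 0.5)), with red above and blue below the wild type vehicle mean and colours ending at -2 and 2. The 5 wild type testosterone columns are red for nearly all rows, as the rule requires, and the other 3 groups lie near 0, with ARLmon testosterone library GC078615 redder than its 4 companions in many rows.

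In ARLmon kidneys no member was called changed by testosterone. None of the 103 passed an adjusted p below 0.05 in edgeR's quasi-likelihood test with Benjamini-Hochberg adjustment over all genes, and none of the 15549 genes did (0%). The smallest adjusted p of a member was 0.774. At an unadjusted p below 0.05 there were 9 members, all higher with testosterone (8.74% of the members, against 1.97% of all tested genes called higher and 5.23% called either way). DESeq2 and limma-voom also called no gene, with 844 and 808 genes at an unadjusted p below 0.05, of which 9 and 3 were members. The ARLmon vehicle libraries had entered the rule through their closeness to wild type vehicle, so this contrast is independent of the rule on its testosterone side only.

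The median log2 difference of the members, testosterone minus vehicle, was 0.13 in ARLmon kidneys, against 1.24 in wild type kidneys. Over all tested genes the same median was 0.01 in ARLmon and -0.03 in wild type kidneys. Of the members, 73 (70.9%) had a difference above 0 in ARLmon kidneys, against 51.2% of all tested genes. The range ran from -0.37 for Abhd11os to 1.52 for Sec14l3, and 8 members were above 0.5. No member had all 5 ARLmon testosterone libraries above all 5 ARLmon vehicle libraries, nor all below (0.392% and 0.386% of all tested genes). At the median member the 95% interval extended 0.37 to either side on the log2 scale, and it reached a 2-fold rise, log2 1, for 11 members. For 101 members the wild type difference, on which the rule chose them, lay above the whole ARLmon interval. The choice largely set this count, and nothing is read from it. The exceptions were Gpm6a and Hs6st2. As a description, since it holds groups of the rule, the difference between both genotypes' responses was called lower in ARLmon for 74 members (3.34% of all tested genes), with a median of -1.14 log2 units.

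**Figure D2:**
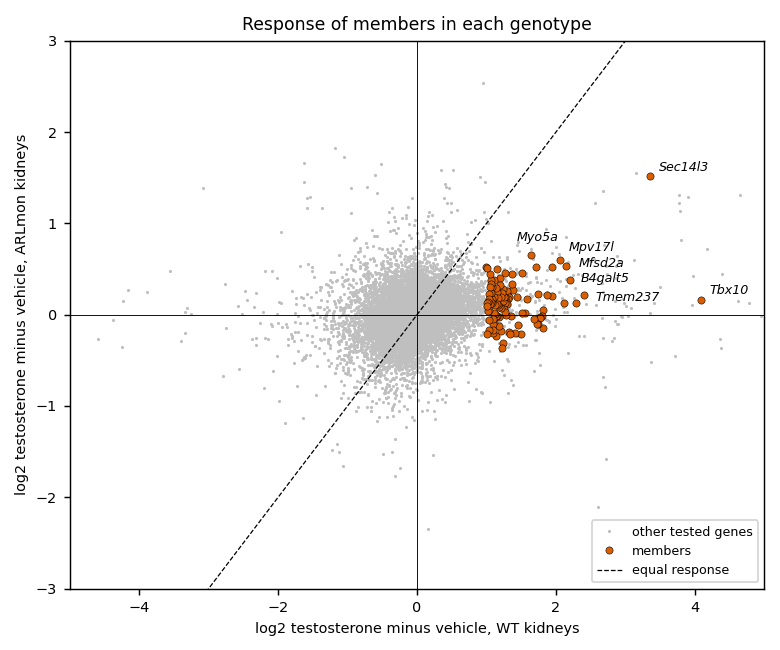
Each point is a gene, with its log2 difference between testosterone and vehicle in wild type kidneys on the x axis and in ARLmon kidneys on the y axis. Orange points are the 103 members, grey points the other tested genes (11 of them lie beyond the axes), and the dashed line marks equal responses. Members lie right of 0.99 by choice and all below the dashed line, between -0.37 and 1.52 on the y axis.

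Testosterone-treated ARLmon kidneys had member levels near those of wild type vehicle kidneys. The median log2 difference between those groups was -0.10 (0.01 over all tested genes), and 2 members, Ephx2 and Ttc39c, were called lower (1.78% of all tested genes). Against wild type testosterone kidneys, 102 members were called lower in ARLmon testosterone kidneys (15.5% of all tested genes), with a median of -1.35. The member not called was Hs6st2, a heparan sulfate sulfotransferase (adjusted p = 0.0506 in edgeR). In 89 members all 5 ARLmon testosterone libraries were below all 5 wild type testosterone libraries (13.1% of all tested genes). These comparisons share libraries with the rule or with each other and are given as values.

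The label of equal vehicle levels holds within the threshold but not exactly. By group mean, 82 members were lower and 21 higher in ARLmon vehicle than in wild type vehicle kidneys, with a median log2 difference of -0.25 (0.01 over all tested genes in the fit). Although all were within 0.5 by the means, 7 were called lower in edgeR (2.38% of all tested genes): Ephx2, Galnt1, Ntn1, Skiv2l2, Them7, Ttc39c and Vps8. All 5 ARLmon vehicle libraries were below all 5 wild type vehicle libraries for 5 members (2.39% of all tested genes). Both vehicle groups took part in the choice of members, so these counts are descriptions and nothing is read from them. Among genes whose names the rule does not bar, 88 further genes met the level and the fold but not the closeness. In ARLmon vehicle kidneys 81 of them were lower and 7 higher. Just inside the closeness threshold were Hsf2bp, Skiv2l2 and Mpv17l (0.498, 0.497 and 0.490 in size), and just outside it Mtor, St8sia1 and Dcst1 (0.501, 0.515 and 0.519). At the 2-fold threshold Hus1 (2.004), Cd55 (2.008) and Gpm6a (2.013) were inside, and Golt1b (1.9994), Ctbs (1.99) and Tlcd2 (1.987) outside. At 5 CPM, Naip2 (5.54), Nusap1 (6.43) and Msantd3 (6.59) were inside, and Ankrd65 (4.97), Mn1 (4.74) and Serpinc1 (4.65) outside.

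One ARLmon testosterone library, GC078615, stood apart for the members. It was the highest of its group for 59 of the 103 (57.3%, against 27.9% of all tested genes). It was the lowest for 16 (15.5%, against 31.1% of all tested genes), so over all genes it was often at either end. It was at least 1.5 times the next library for 14 members (13.6%, against 1.34% of all tested genes). The same excess was found for 1 member in GC078612 and for 0 members in GC078613, GC078614 and GC078616. The median log2 level of the members relative to the wild type vehicle mean was 0.11 in GC078615 and -0.22 to -0.13 in the other 4 libraries. Without GC078615 the median ARLmon difference of the members was 0.08 (0.01 over all tested genes), 72 were still above 0, none was above 0.5, the highest was 0.39, and none had an unadjusted p below 0.05. For 67 members the difference was then over 1.5 times smaller in size or of the other sign. Odc1, which encodes ornithine decarboxylase and is a classical androgen target of the kidney, had 184 CPM in GC078615 and 165 to 232 CPM in the other 4. Kap, the kidney androgen-regulated protein, was highest in GC078615, with 8160 CPM against 4881 to 7242 CPM in the other 4. In the ARLmon vehicle libraries Kap ran from 4236 to 15542 CPM. A list of 22 androgen-induced kidney genes that includes Kap summed to 10486 CPM in GC078615 and to 6564 to 8869 CPM in the other 4. The ARLmon vehicle libraries had sums of 5586 to 17357 CPM. Kap made up most of the sum in each ARLmon library, so the sum largely repeats the Kap values. The 10 straight proximal tubule markers, some of them also on that list, summed to 4780 CPM in GC078615 and to 2854 to 4491 CPM in the other 4. The part of these markers in the members' values was not tested.

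**Figure D3:**
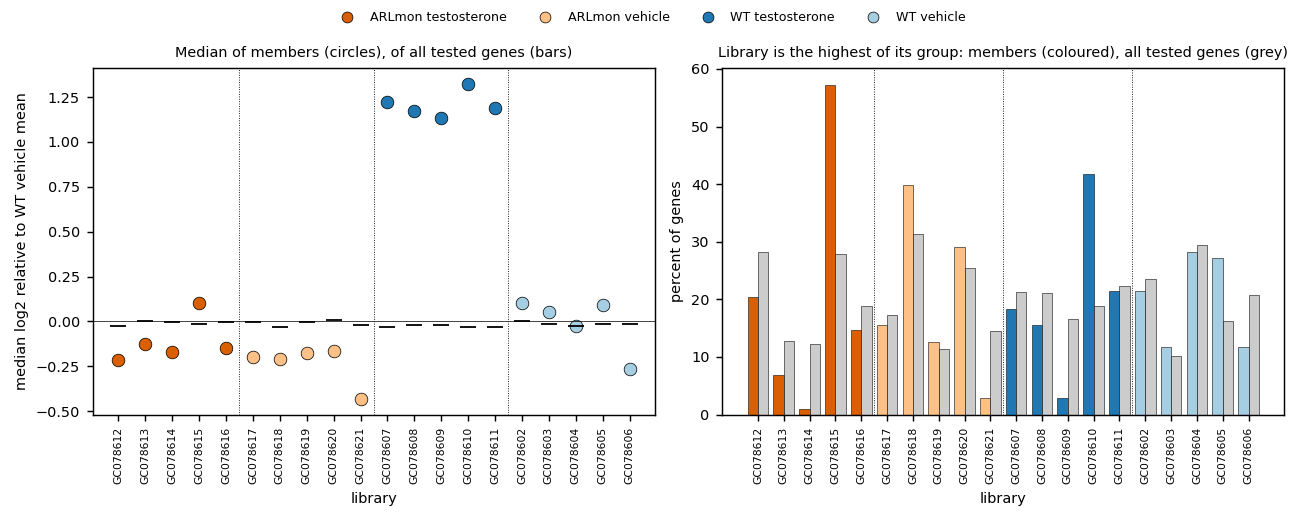
Left, the median log2 level of the members relative to the wild type vehicle mean (circles) and of all tested genes (black bars), for each of the 20 libraries. Right, the percent of members (coloured) and of all tested genes (grey) for which that library was the highest of its 5. GC078615 is at 57.3% of members and 27.9% of all genes, and in the left panel it lies above the other ARLmon libraries and near the higher wild type vehicle libraries.

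Other libraries also leaned. Among the ARLmon vehicle libraries, GC078621 was the lowest of its group for 42 members (40.8%, against 14.9% of all tested genes). Wild type testosterone library GC078610 was the highest for 43 (41.7%, against 18.9%), and wild type vehicle library GC078606 the lowest for 46 (44.7%, against 18.1%). In ARLmon vehicle, GC078618 was the highest for 41 (39.8%, against 31.3%). GC078606, GC078610, GC078618 and GC078621 took part in the choice of members. In ARLmon testosterone, which took no part, GC078612 was the lowest for 43 members (41.7%, against 30.1%). Tubular injury markers summed to 8499 CPM in GC078612 and to 2598 to 3365 CPM in the other ARLmon testosterone libraries. The part of these markers in the members' values was not tested.

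Values by library are given below in the order of the library codes, GC078612 to GC078616 for ARLmon testosterone, GC078617 to GC078621 for ARLmon vehicle, GC078607 to GC078611 for wild type testosterone and GC078602 to GC078606 for wild type vehicle, in CPM scaled by TMM factors. For ARLmon kidneys the difference is on the log2 scale with its SE and 95% interval from edgeR, and its adjusted p was at least 0.774 for every member. For wild type kidneys the fold is a ratio of mean CPM, with no test. Roles were assigned to members after their values had been seen and carry no test. Counts of members above 0 by role stand beside 51.2% of all tested genes. Members share libraries and are not replicates of a role. Of the 67 members whose difference was over 1.5 times smaller or of the other sign without GC078615, 51 were above 0 with it.

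Transcription and chromatin held 6 members, 5 of them above 0 in ARLmon kidneys, with a median log2 difference of 0.11 there and 1.29 in wild type. Tbx10 (chromosome 19, GENCODE M21 on GRCm38, 3992752 to 3999512) had 0.267, 0.703, 0.524, 0.406 and 0.653 CPM with testosterone and 0.467, 0.941, 0.336, 0.344 and 0.330 CPM with vehicle in ARLmon kidneys. It had 8.43, 12.5, 11.005, 11.6 and 12.9 CPM with testosterone and 0.566, 0.365, 1.39, 0.474 and 0.342 CPM with vehicle in wild type kidneys. Only the 5 wild type testosterone libraries exceeded 1.5 CPM, so the gene was near the detection limit elsewhere, and it was 17.99 times higher in wild type and 0.16 ± 0.41 (-0.70 to 1.03) in ARLmon. Without vehicle library GC078618 the ARLmon difference was 0.50.

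Med14, a subunit of the Mediator complex that links transcription factors to RNA polymerase, had 37.002, 52.02, 46.2, 97.5 and 49.01 CPM with testosterone and 46.9, 30.4, 46.7, 45.1 and 27.2 CPM with vehicle in ARLmon kidneys. The wild type libraries held 163, 151, 156, 219 and 200.4 CPM with testosterone and 67.4, 60.2, 33.1, 72.4 and 38.5 CPM with vehicle. The wild type groups were far apart, whereas the ARLmon groups overlapped and their highest value was that of GC078615. The ARLmon difference was 0.53 ± 0.25 (0.01 to 1.04), and 0.23 without GC078615. Smarca2, a chromatin-remodelling ATPase, averaged 116 ± 9.30 and 111 ± 7.64 CPM in ARLmon testosterone and vehicle kidneys, against 309 ± 49.2 and 129 ± 18.8 CPM in wild type testosterone and vehicle kidneys (SD, n = 5 each). The other members of the group, Msantd3, Etv1 and Ovol1, averaged 6.59, 21.03 and 18.7 CPM in wild type testosterone kidneys.

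The secretory pathway, glycosylation and membrane traffic held 14 members, 13 of them above 0 in ARLmon kidneys, with a median of 0.16 there and 1.20 in wild type. B4galt5, a galactosyltransferase that makes lactosylceramide, had 41.1, 50.1, 43.8, 87.7 and 56.002 CPM with testosterone and 40.6, 53.6, 43.2, 38.3 and 39.04 CPM with vehicle in ARLmon kidneys. In wild type kidneys its values were 201, 227, 240.4, 283 and 332 CPM with testosterone and 54.6, 49.7, 67.8, 58.2 and 48.04 CPM with vehicle. The wild type groups were separated by a wide gap, and in ARLmon only GC078615 and GC078616 were above every vehicle library. B4galt5 was 4.61 times higher in wild type and 0.38 ± 0.18 (0.01 to 0.75) in ARLmon, or 0.16 without GC078615.

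Snx31, a sorting nexin of endosomal traffic, had 7.12, 9.61, 7.33, 7.65 and 5.29 CPM with testosterone and 7.79, 7.61, 5.91, 6.71 and 5.94 CPM with vehicle in ARLmon kidneys. Wild type kidneys had 42.8, 44.3, 37.8, 51.7 and 29.4 CPM with testosterone and 10.3, 8.46, 11.6, 7.72 and 3.42 CPM with vehicle. Every wild type testosterone library was above every other library, and the 3 other groups overlapped. The ARLmon difference was 0.13 ± 0.23 (-0.34 to 0.60), beside a wild type fold of 4.96.

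Myo5a, an actin motor that carries vesicles, had 40.2, 62.6, 57.2, 140.3 and 44.96 CPM with testosterone and 42.99, 47.8, 51.7, 54.1 and 23.8 CPM with vehicle in ARLmon kidneys. Its wild type libraries had 84.3, 115, 91.4, 149 and 152 CPM with testosterone and 45.4, 35.9, 26.1, 50.3 and 31.1 CPM with vehicle. Library GC078615 lay within the range of the wild type testosterone group, while the other 4 ARLmon testosterone libraries lay below it. For ARLmon the fitted difference was 0.65 ± 0.29 (0.04 to 1.26), the second highest of all members, and 0.22 without GC078615. Galnt1, which starts mucin-type O-glycosylation, averaged 96.04 ± 10.2 and 85.4 ± 11.2 CPM in ARLmon testosterone and vehicle kidneys, against 345 ± 38.2 and 115 ± 19.4 CPM in wild type testosterone and vehicle kidneys (SD, n = 5 each).

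Components of the early secretory route were among the group at moderate folds: Sec23b, a coat protein of vesicles leaving the endoplasmic reticulum, Sec11a, a subunit of signal peptidase, and Edem1, which directs misfolded glycoproteins to degradation. Their wild type folds were 2.33, 2.06 and 2.26, and their ARLmon log2 differences were 0.23, 0.05 and 0.09. Hs6st2, one of the 2 members whose wild type difference lay inside the ARLmon interval, had 4.45, 2.93, 2.47, 6.84 and 1.83 CPM with testosterone and 1.79, 3.17, 3.63, 2.81 and 1.65 CPM with vehicle in ARLmon kidneys. Wild type values were 6.39, 7.74, 4.11, 9.005 and 6.73 CPM with testosterone and 4.78, 3.55, 1.96, 4.61 and 1.94 CPM with vehicle. Testosterone and vehicle libraries overlapped in both genotypes, and without GC078615 its ARLmon difference was 0.15, against 0.52 ± 0.34 (-0.19 to 1.24) with it.

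**Figure D4:**
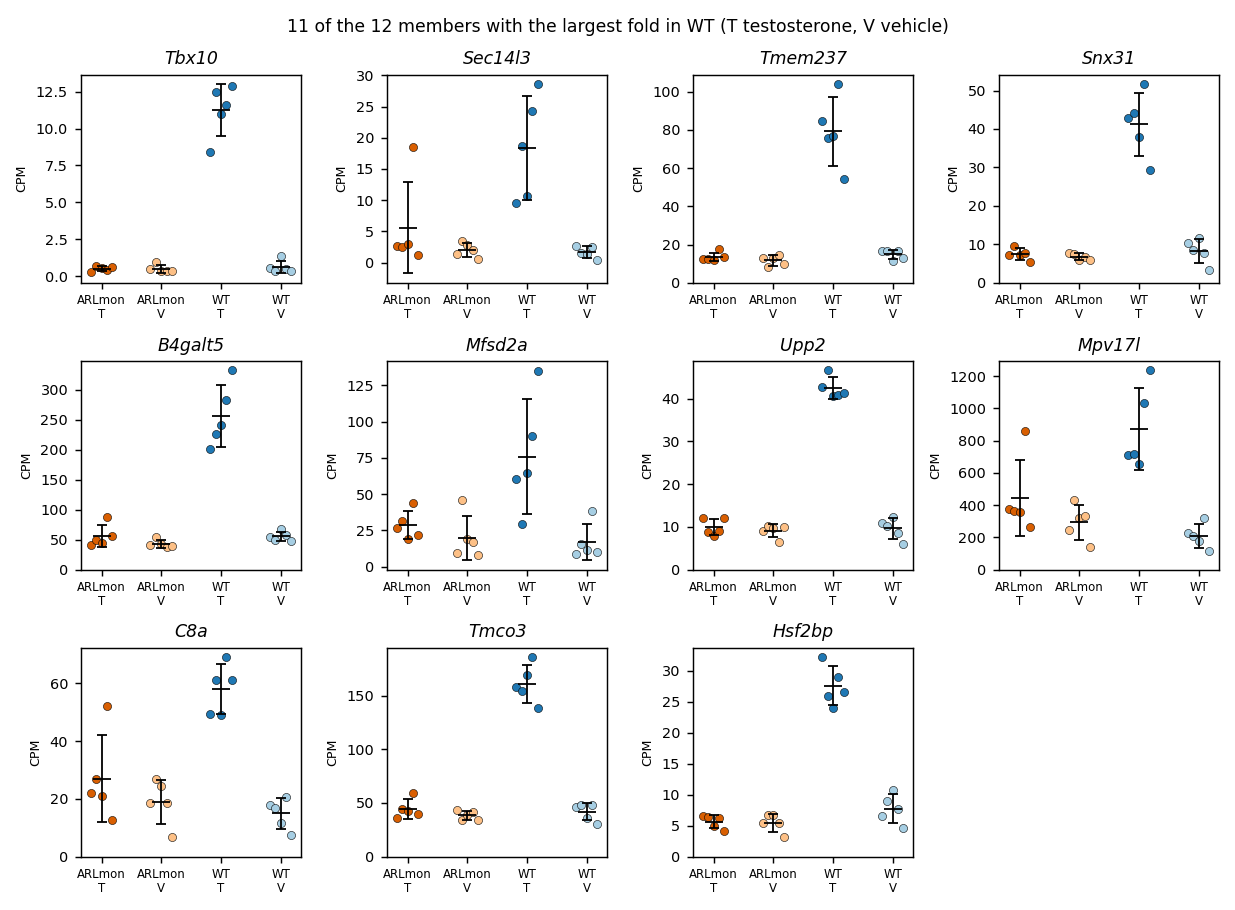
CPM in each of the 5 libraries of the 4 groups for 11 of the 12 members with the largest fold in wild type, with group mean and SD as black bars, and T for testosterone and V for vehicle. The wild type testosterone group has the highest mean in every panel. One ARLmon testosterone library, GC078615, stands above its group for Sec14l3, Mpv17l, C8a and B4galt5.

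Lipid, steroid and energy metabolism was the largest group, with 20 members, 16 of them above 0 in ARLmon kidneys and medians of 0.16 in ARLmon and 1.16 in wild type. Lpl, lipoprotein lipase, which releases fatty acids from circulating triglycerides, had 528, 662, 583, 984 and 631 CPM with testosterone and 661, 913, 695, 556 and 523 CPM with vehicle in ARLmon kidneys. Wild type kidneys carried 1976, 1809, 1849, 2353 and 2229.5 CPM with testosterone and 585, 584, 963, 676 and 684 CPM with vehicle. Every wild type testosterone library was above every library of the other groups, and ARLmon testosterone and vehicle libraries overlapped. The wild type fold was 2.93, and the ARLmon difference was 0.02 ± 0.17 (-0.34 to 0.38).

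Hmgcs1, the cytosolic synthase at the start of cholesterol synthesis, had 307, 342, 329, 515 and 357 CPM with testosterone and 268, 285, 275, 308 and 226 CPM with vehicle in ARLmon kidneys. Values in wild type kidneys were 983, 844, 902, 1089.8 and 1086 CPM with testosterone and 411, 439, 309, 486 and 265 CPM with vehicle. In ARLmon only 1 testosterone library, at 307 CPM, lay within the vehicle range, and the other 4 exceeded it. Hmgcs1 had the smallest unadjusted p of the members in ARLmon kidneys, 0.00966 in edgeR, with a difference of 0.44 ± 0.16 (0.12 to 0.77) and an adjusted p of 0.774. Without GC078615 the difference was 0.30.

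Gyk, glycerol kinase, had 353, 442, 447, 795 and 471 CPM with testosterone and 401, 281, 437, 497 and 233 CPM with vehicle in ARLmon kidneys. Its wild type values were 878, 755, 844, 1184 and 1113 CPM with testosterone and 545, 589, 243, 685 and 246 CPM with vehicle. The wild type vehicle libraries spread widely, with GC078604 and GC078606 far below the other 3, and GC078615 was the only ARLmon library inside the wild type testosterone range. In ARLmon the difference was 0.44 ± 0.28 (-0.14 to 1.02), and 0.21 without GC078615.

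Mpv17l, a membrane protein related to Mpv17, had 375, 366, 358, 859 and 262 CPM with testosterone and 245, 429.6, 323, 334 and 140.2 CPM with vehicle in ARLmon kidneys. Wild type libraries had 713, 719, 657, 1035 and 1235 CPM with testosterone and 228, 210.1, 176, 318 and 116 CPM with vehicle. GC078615 alone reached the wild type testosterone range, and 4 of 5 ARLmon testosterone libraries lay within the ARLmon vehicle range. The difference in ARLmon was 0.59 ± 0.31 (-0.06 to 1.25), or 0.21 without that library.

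Sec14l3, a lipid-binding protein of the Sec14 family, had 2.58, 2.58, 2.92, 18.6 and 1.24 CPM with testosterone and 1.32, 3.51, 2.82, 1.95 and 0.605 CPM with vehicle in ARLmon kidneys. Wild type kidneys showed 9.51, 18.6, 10.7, 24.4 and 28.6 CPM with testosterone and 2.73, 1.57, 1.30, 2.42 and 0.455 CPM with vehicle. A single ARLmon testosterone library, GC078615, was at 6.38 times the next one and inside the wild type testosterone range. Its ARLmon difference, 1.52 ± 0.61 (0.24 to 2.79), was the highest of all members and was 0.21 without GC078615.

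Mfsd2a, a transporter of lysophosphatidylcholine, had 26.7, 31.9, 18.9, 43.9 and 22.2 CPM with testosterone and 9.81, 45.9, 19.2, 16.99 and 8.30 CPM with vehicle in ARLmon kidneys. The corresponding wild type values were 60.5, 29.4, 64.6, 89.8 and 135 CPM with testosterone and 8.54, 15.7, 11.8, 38.4 and 9.90 CPM with vehicle. It was among the most variable members, and testosterone and vehicle libraries overlapped in both genotypes. The ARLmon difference of 0.54 ± 0.46 (-0.42 to 1.49) was 1.08 without vehicle library GC078618 and 0.33 without GC078615.

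Cyb5a, cytochrome b5, an electron donor to desaturases and cytochromes P450, had 509, 455, 468, 395 and 527 CPM with testosterone and 499, 541, 502, 466 and 484 CPM with vehicle in ARLmon kidneys. Its wild type libraries held 1572, 1299, 1442, 1384 and 1052 CPM with testosterone and 614, 686, 758, 533 and 531 CPM with vehicle. The ARLmon groups overlapped closely, with a difference of -0.08 ± 0.12 (-0.32 to 0.16). Ephx2, soluble epoxide hydrolase, had 305, 242, 255, 231 and 284 CPM with testosterone and 281, 344, 285, 259.6 and 307 CPM with vehicle in ARLmon kidneys, and 939.6, 800.1, 805, 964 and 906 CPM with testosterone and 372, 419, 493, 385 and 407 CPM with vehicle in wild type kidneys. All 10 ARLmon libraries were below all 10 wild type libraries for Ephx2, and its ARLmon difference was -0.17 ± 0.10 (-0.38 to 0.04).

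Srd5a1, a steroid reductase that can make dihydrotestosterone, averaged 18.6 ± 2.74 and 17.2 ± 2.10 CPM in ARLmon testosterone and vehicle kidneys, against 47.4 ± 9.77 and 21.7 ± 5.31 CPM in wild type testosterone and vehicle kidneys (SD, n = 5 each). Far1, a reductase of ether lipid synthesis, and Lypla1, a lysophospholipase, had ARLmon differences of 0.38 ± 0.22 (-0.07 to 0.84) and 0.46 ± 0.26 (-0.08 to 1.00), or 0.20 and 0.23 without GC078615. mt-Atp6, which the mitochondrial genome encodes and which overlaps mt-Atp8, was counted at only 21.1 CPM in wild type testosterone kidneys, and its value is uncertain because reads of overlapping genes can be lost in counting.

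Amino acid, nucleotide, sulfur and methyl metabolism held 11 members, 6 of them above 0 in ARLmon kidneys, with medians of 0.02 there and 1.29 in wild type. Inmt, a methyltransferase of indole amines, had 365, 399, 318, 272 and 493 CPM with testosterone and 391, 516, 358, 327 and 448 CPM with vehicle in ARLmon kidneys. Wild type kidneys contained 2019.8, 1481, 1553, 1522 and 679 CPM with testosterone and 463, 567, 761, 156 and 124 CPM with vehicle. The wild type vehicle group was split, with GC078605 and GC078606 far below the other 3, and 1 testosterone library fell below the highest vehicle library. Its ARLmon difference was -0.14 ± 0.36 (-0.90 to 0.61), with overlapping groups.

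Upp2, a uridine phosphorylase, had 12.1, 8.79, 7.93, 9.07 and 12.1 CPM with testosterone and 9.11, 10.3, 9.74, 6.49 and 10.01 CPM with vehicle in ARLmon kidneys. Wild type values of Upp2 were 42.8, 46.7, 40.6, 40.8 and 41.2 CPM with testosterone and 11.01, 10.3, 12.3, 8.54 and 6.03 CPM with vehicle. The wild type testosterone libraries were tightly grouped above all others, and the remaining 15 libraries overlapped. Testosterone minus vehicle in ARLmon was 0.13 ± 0.16 (-0.21 to 0.47), beside a wild type fold of 4.40.

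A pair of enzymes of glutathione turnover had differences of opposite sign in ARLmon kidneys, neither of them called. Ggct, gamma-glutamylcyclotransferase, had a difference of -0.22 ± 0.17 (-0.58 to 0.14), and Chac2 had 0.38 ± 0.17 (0.03 to 0.72) with an unadjusted p of 0.0343 in edgeR and an adjusted p of 0.774. Their wild type folds were 2.02 and 2.09. Papss1, which makes the sulfate donor of sulfotransferases, averaged 104 ± 18.1 and 99 ± 11.1 CPM in ARLmon testosterone and vehicle kidneys, against 199 ± 21.8 and 85.6 ± 9.63 CPM in wild type testosterone and vehicle kidneys (SD, n = 5 each). Ctps, CTP synthase, had an ARLmon difference of 0.33 ± 0.15 (0.02 to 0.65), or 0.21 without GC078615.

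RNA handling and translation held 8 members, 3 of them above 0 in ARLmon kidneys, with medians of -0.07 there and 1.14 in wild type. Ybx1, a Y-box protein that binds mRNA, had 298, 275, 266, 271 and 277 CPM with testosterone and 286, 309, 269, 255 and 286 CPM with vehicle in ARLmon kidneys. Its wild type values were 819, 664, 704, 729 and 796 CPM with testosterone and 296, 319, 354, 347 and 377 CPM with vehicle. Both ARLmon groups overlapped within a narrow range and the wild type groups were well apart, and a pseudogene named after Ybx1 could share its reads. For ARLmon the fitted difference was -0.02 ± 0.08 (-0.19 to 0.15).

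Npm3, a nucleolar protein of the nucleoplasmin family, had 12.1, 13.9, 12.6, 10.3 and 16.5 CPM with testosterone and 13.7, 19.3, 14.4, 11.2 and 18.6 CPM with vehicle in ARLmon kidneys. The wild type libraries gave 34.9, 43.9, 44.7, 44.9 and 50.4 CPM with testosterone and 16.8, 17.4, 33.1, 15.5 and 16.7 CPM with vehicle. The ARLmon groups overlapped with testosterone on the lower side, and the difference was -0.24 ± 0.20 (-0.65 to 0.17). Nhp2, a protein of ribosomal RNA modification complexes, differed by -0.20 ± 0.22 (-0.65 to 0.25), or -0.09 without GC078615. On the other side, Tyw3, a tRNA-modifying enzyme, differed by 0.50 ± 0.19 (0.11 to 0.89) with an unadjusted p of 0.0141 in edgeR and an adjusted p of 0.774, and Skiv2l2, an RNA helicase of the nuclear exosome, differed by 0.24 ± 0.11 (0.01 to 0.47), or 0.13 without GC078615.

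The 17 secreted and surface proteins had medians of 0.20 in ARLmon and 1.24 in wild type kidneys, and 13 were above 0 in ARLmon. C8a, the alpha chain of complement component C8, had 21.97, 26.7, 21.1, 52.2 and 12.7 CPM with testosterone and 18.4, 26.7, 24.3, 18.7 and 6.87 CPM with vehicle in ARLmon kidneys. Levels in wild type kidneys were 49.3, 61.2, 49.1, 69.01 and 61.1 CPM with testosterone and 17.8, 16.8, 11.8, 20.8 and 7.51 CPM with vehicle. GC078615 was again the one ARLmon library within the wild type testosterone range. In ARLmon the difference was 0.52 ± 0.33 (-0.17 to 1.21), or 0.13 without it.

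Gpm6a, a membrane glycoprotein, had 82.6, 94.1, 89.4, 178 and 84.6 CPM with testosterone and 77.9, 69.04, 78.4, 97.97 and 47.7 CPM with vehicle in ARLmon kidneys. Its wild type values were 156, 167, 152, 230.4 and 176 CPM with testosterone and 123, 101, 53.4, 116 and 43.9 CPM with vehicle. As for Gyk, wild type vehicle libraries GC078604 and GC078606 were low for Gpm6a, and GC078615 was inside the wild type testosterone range. Its ARLmon difference was 0.51 ± 0.26 (-0.04 to 1.06), or 0.24 without GC078615.

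Ly6a and Ly6e, lipid-anchored surface proteins of the Ly6 family, lie 34.97 kb apart on chromosome 15. Ly6a had 429, 345, 323, 316 and 405 CPM with testosterone and 447, 640.4, 404, 354 and 415 CPM with vehicle in ARLmon kidneys, and 979, 743, 935, 919.7 and 537 CPM with testosterone and 307, 332, 490.1, 256 and 356 CPM with vehicle in wild type kidneys. It was the second lowest member in ARLmon, with a difference of -0.31 ± 0.18 (-0.69 to 0.07) and overlapping groups. Ly6e averaged 279 ± 56.5 and 314 ± 65.4 CPM in ARLmon testosterone and vehicle kidneys, against 615 ± 145 and 299 ± 91.3 CPM in wild type testosterone and vehicle kidneys (SD, n = 5 each). Reads of these related genes may be split between family members.

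Ntn1, the guidance and survival factor netrin, had 50.5, 55.3, 66.6, 67.2 and 55.3 CPM with testosterone and 55.3, 48.3, 60.7, 58.3 and 46.02 CPM with vehicle in ARLmon kidneys. For wild type kidneys the values were 128, 156, 133, 148 and 143 CPM with testosterone and 61.9, 74.4, 62.3, 81.6 and 67.1 CPM with vehicle. ARLmon testosterone and vehicle libraries overlapped, and every ARLmon vehicle library was below every wild type vehicle library. Testosterone minus vehicle in ARLmon was 0.13 ± 0.11 (-0.08 to 0.35). Mep1b, the beta subunit of the brush border protease meprin, differed by 0.46 ± 0.29 (-0.15 to 1.07), and by 0.21 without GC078615.

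Sucnr1, a receptor that senses succinate, averaged 23.8 ± 4.25 and 21.8 ± 5.32 CPM in ARLmon testosterone and vehicle kidneys, against 73.6 ± 19.1 and 30.6 ± 6.52 CPM in wild type testosterone and vehicle kidneys (SD, n = 5 each). Cd55, which protects cells from complement, sat at the 2-fold threshold and differed by 0.13 ± 0.13 (-0.14 to 0.39) in ARLmon, or 0.01 without GC078615.

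The 6 cytoskeleton and cilium genes had medians of 0.15 in ARLmon and 1.24 in wild type kidneys, with 5 above 0 in ARLmon. Tmem237, a protein of the ciliary transition zone, had 12.7, 12.4, 11.97, 17.5 and 13.5 CPM with testosterone and 13.01, 8.21, 13.2, 14.7 and 9.62 CPM with vehicle in ARLmon kidneys. Its wild type libraries were at 84.7, 76.05, 77.03, 104 and 54.2 CPM with testosterone and 16.5, 16.7, 11.5, 16.6 and 13.2 CPM with vehicle. The wild type testosterone libraries were at least 3 times every other library. Tmem237 was 5.32 times higher in wild type and 0.21 ± 0.18 (-0.16 to 0.58) in ARLmon, or 0.10 without GC078615. Gas2, a protein that links actin and microtubules, had a wild type fold of 2.08 at 578 CPM and an ARLmon difference of 0.14.

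The 5 genes of DNA replication, repair and mitosis had medians of 0.18 in ARLmon and 1.08 in wild type kidneys, and all 5 were above 0 in ARLmon. Among them, Mcm10 and Nusap1, a replication initiator and a spindle protein, averaged 8.94 and 6.43 CPM in wild type testosterone kidneys. Hsf2bp, known for meiotic recombination, had a wild type fold of 3.57 and an ARLmon difference of 0.06 ± 0.21 (-0.38 to 0.49). Hus1, part of the DNA damage checkpoint clamp, had the lowest fold of all members, 2.00, and an ARLmon difference of 0.10. Of 25 proliferation genes on a separate list, 1 was called higher (9.36% of all tested genes) and 6 lower (6.36% of all tested genes) with testosterone in wild type kidneys, and none in either direction in ARLmon kidneys.

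The 7 immune and kinase signalling genes had medians of -0.01 in ARLmon and 1.35 in wild type kidneys, with 3 above 0 in ARLmon. Lrrk2, a large kinase, had an ARLmon difference of 0.32 ± 0.24 (-0.17 to 0.82), or 0.14 without GC078615. Naip2, an inflammasome sensor, and Ptpn22, a phosphatase of lymphocytes, averaged 5.54 and 11.8 CPM in wild type testosterone kidneys. The Ptpn22 mean rests on GC078611, at 32.2 CPM against 3.26 to 8.83 CPM in the other 4. Without that library it was 6.71 CPM and the wild type fold 1.89, against 3.33 with it. The 12 macrophage and lymphocyte markers, of which 11 were tested and had reads, summed to 122 to 190.3 CPM in ARLmon testosterone and 131 to 163 CPM in ARLmon vehicle kidneys. They summed to 118 to 164 CPM in wild type testosterone and 119 to 146 CPM in wild type vehicle kidneys, and 1 of them was called higher with testosterone in wild type. Their part in these members was not tested.

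The 9 remaining members had medians of -0.03 in ARLmon and 1.37 in wild type kidneys. Abhd11os, annotated as a transcribed pseudogene antisense to Abhd11, had the lowest ARLmon difference, -0.37 ± 0.27 (-0.93 to 0.19). Without GC078615 it was -0.16, and Sgtb (-0.36), Apobec2 (-0.29) and Ly6a (-0.27) were lower. It is the only member not annotated as protein coding, and without a stated strand setting its reads cannot be told from those of Abhd11. Fbxo40, an F-box protein, and Ttc39c, a tetratricopeptide protein, had wild type folds of 3.42 and 3.32 and ARLmon differences of -0.03 and -0.11.

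**Figure D5:**
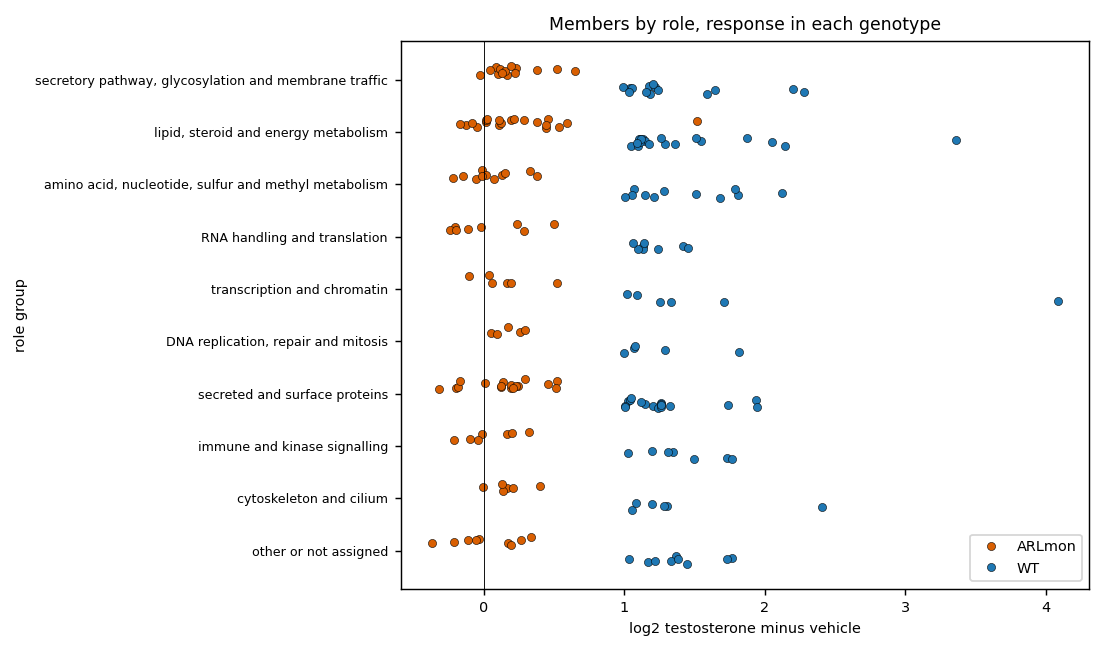
Each member is drawn at its log2 difference between testosterone and vehicle, orange for ARLmon and blue for wild type kidneys, in rows by assigned role. Orange points lie from -0.37 to 1.52, where Sec14l3 is the farthest, and 73 of the 103 are above 0 (51.2% of all tested genes). Blue points start at 0.99 by choice, and Tbx10 is farthest at 4.09.

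Per kilobase of annotated exon, Inmt, Ly6a and Cyb5a led the members in wild type testosterone kidneys, at 907, 683 and 435 CPM per kilobase, while Lpl, first in CPM, stood at 195. The members were spread over 21 chromosomes, the mitochondrial one included, and 7 pairs lay within 1 Mb of each other, among them Ggct and Inmt at 178 kb on chromosome 6 and Proz and Tmco3 at 212 kb on chromosome 8. All 103 matched the annotation, 102 as protein-coding genes, and 63 overlapped another annotated gene on either strand, which leaves their counts less certain.

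Some tubule markers also changed with testosterone in wild type kidneys. Of 10 straight proximal tubule markers, all tested and with reads, 7 were called higher with testosterone in wild type kidneys (9.36% of all tested genes), and the list summed to 7301 to 9155 CPM in wild type testosterone and 3201 to 4692 CPM in wild type vehicle kidneys. In ARLmon kidneys none was called, at 2854 to 4780 CPM with testosterone and 2048 to 5369 CPM with vehicle. Slc7a13, Slc22a30, Cyp7b1 and Atp11a are on this list and also on the list of 22 androgen-induced kidney genes below. Among 10 convoluted proximal tubule markers, none was called higher (9.36% of all tested genes) and 2 lower (6.36%) in wild type kidneys. Of 10 podocyte markers 8 were called lower in wild type (6.36% of all tested genes), with sums of 344 to 435 CPM with testosterone and 452 to 663 CPM with vehicle. In whole-kidney RNA more cells of a type and more RNA per cell cannot be told apart, and the part of these markers in the members' values was not tested. Of 22 androgen-induced kidney genes on another list, 21 were called higher in wild type (9.36% of all tested genes) and none in ARLmon. None of the 22 is a member, which the names barred by the rule largely fixed in advance. Among them Odc1, Gusb, Nudt19, Srd5a2, Hsd11b1 and Hsd17b11 met the value thresholds and were set aside by name. Of 54 tested androgen response genes of prostate cells, 10 were called higher (9.36% of all tested genes) and 2 lower (6.36%) in wild type. None of the 54 was called in ARLmon, and Hmgcs1 is the one member among them.

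In the deposited table of log2 values, which held 99 of the members for the same libraries, all 99 were higher with testosterone in wild type kidneys, 70 of them by at least 1, and 98 had vehicle means within 0.5 of each other. The median difference there was 0.16 in ARLmon kidneys (0.03 over all genes of the table) and 1.11 in wild type kidneys.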

How the data were processed

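The 20 kidney libraries had been made with a stranded mRNA kit and sequenced on an Illumina instrument, per the labels' protocols. The mm10 build and the tools HISAT2, HTSeq (given as 2.7.14), SAMtools 1.5, DESeq2 and FastQC 0.11.7 are listed in the submitters' processing notes; the strand setting and gene annotation are not given in the sources used here. The authors deposited 4 tables of raw counts, each for a pair of groups, and a table of log2 values for 20550 genes whose normalization is not stated. Columns carry a library code that gives the group. The tables shared identical values and were joined over 24762 genes; 12045 values absent from a table were set to 0. No 2 libraries of a group were copies (chi-square per degree of freedom 5.23 to 139 over 40 pairs).

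Counts were filtered (filterByExpr, 15549 genes), scaled by TMM and fitted with edgeR 4.0.16 in R 4.3.3 (quasi-likelihood, 4 group means, 16 residual degrees of freedom), with Benjamini-Hochberg adjustment over all genes and calls at 0.05. CPM came from the same filtered and scaled libraries. SE values derive from the F statistic. Members and gene lists were chosen with earlier results of these data known. Named members are the 12 largest wild type folds, the 10 highest levels, the 5 highest and 5 lowest ARLmon differences, those nearest each threshold and those on a list; others were named as examples of a role after their values were seen. Some genes, members included, are counted but not reported here by name. Alternatives used DESeq2 1.42.0, limma 3.58.1, other scalings and filters, and each library left out in turn. Correlations between members within a group were not computed, since 5 libraries are too few. The fit was tested on simulated data, with no result given here and nothing read from it. Figures were drawn with matplotlib 3.10.9.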

Additional observations from a re-analysis of the deposited data

Results flagged for a closer look

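A library stood far from the other 4 of its group, by Dixon's 95% limit for 5 values (0.71), in 34 of 412 tests over the members, of which 11 were in ARLmon testosterone library GC078615. Chance flags about 1 in 20 groups. Among the named members there were 14 in 140 tests.

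In GC078615 the highest values were 178 CPM for Gpm6a, 795 CPM for Gyk, 515 CPM for Hmgcs1 and 97.5 CPM for Med14. The same library was highest with 859 CPM for Mpv17l, 140 CPM for Myo5a, 18.6 CPM for Sec14l3 and 17.5 CPM for Tmem237. Among the ARLmon vehicle libraries, GC078618 was high for Tbx10 with 0.941 CPM. Wild type vehicle library GC078604 was high for Abhd11os with 5.62 CPM, for Lpl with 963 CPM, for Npm3 with 33.1 CPM and for Tbx10 with 1.39 CPM. In the same group GC078605 was high for Mfsd2a with 38.4 CPM. The technical or biological source of these values was not tested.

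The responses to testosterone differed between ARLmon and wild type kidneys for 74 members by the interaction term of edgeR at an adjusted p below 0.05 (3.34% of all tested genes in that direction), all with the smaller response in ARLmon. The wild type libraries and the ARLmon vehicle libraries in that term also chose the members, so nothing is read from the count.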

How the results depend on the processing

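No gene and no member was called in ARLmon kidneys under any alternative: median-ratio factors, library size alone, no filter, 1 CPM in 5 libraries, DESeq2, limma-voom, the 10 ARLmon libraries alone, each library left out in turn (0 to 0), and, added after seeing the data, without both GC078604 and GC078618 and with limma on the deposited log2 values. Genes at an unadjusted p below 0.05 numbered 813 in edgeR, 844 in DESeq2 and 808 in limma-voom. The median ARLmon difference of the members ran from 0.12 to 0.16 over those settings, and from 0.08 (without GC078615) to 0.18 (without GC078612) with each library left out. Of 1013 values of named members under an alternative, 4 moved by more than 1 SD (of the 5 ARLmon testosterone libraries on the log2 scale): Mfsd2a to 1.08 and Tbx10 to 0.50 without GC078618, and likewise to 1.09 and 0.50 without both libraries. That SD includes GC078615 and is wide where this library stands apart: Sec14l3 fell to 0.21 without GC078615, against 1.52 with it, and is not among the 4 because its SD is 1.31 (0.44 over the other 4). Without GC078615, 24 of the 35 named members had a difference over 1.5 times smaller in size or of the other sign. The wild type testosterone mean of 1 member, Ptpn22, moved by over 1.5 times without 1 library, a setting added after seeing the data. Gyk and Skiv2l2 are not among the log2 values used.

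The number of members was 451 at 1.5-fold, 23 at 3-fold and 45 with the vehicle groups within 0.25, against 103; these changes follow from the thresholds. It was 73 with library size alone (64 shared with the 103), 92 with group medians (73 shared), 91 with no filter before scaling (91 shared), and 83 (without GC078606) to 123 (without GC078602) with each library left out, 48 members being kept every time. With at most 2 mismatches the share of the 56 searched member promoters with the response element was 0%, against 5.36%. No paired analysis was possible because the columns carry no replicate number.

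Low members such as Tbx10 rest on few reads outside wild type testosterone kidneys. Overlapping genes limit some counts, and at 5 libraries a group the intervals of 11 members reach a 2-fold rise in ARLmon kidneys.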
